A study of Mus musculus with 16 samples.

Results

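The genes described here are 40 interferon-stimulated genes of the mouse, given as a list of symbols that was chosen with earlier results of these data known, and all 40 were found among the 29535 genes of the expression table. They comprise 3 sensors of foreign nucleic acid, 4 transcription factors of the interferon pathway, 3 IFIT genes, 5 oligoadenylate synthetase genes, 2 Mx genes, 3 genes of the ISG15 system, 3 genes of the Parp9, Parp14 and Dtx3l cluster, 6 GTPases known for their response to interferon gamma, and 11 other effectors. The animals were 12 months old, on a hybrid strain of 129/SvImJ and C57Bl/6J, and the tissue was prostate. The genotypes were wild type (+/+) and, for 1 gene, homozygous mutant (-/-), and each was given either vehicle or finasteride, a drug that inhibits 5-alpha-reductase, the enzyme that turns testosterone into the stronger androgen dihydrotestosterone. The wild type had 3 vehicle and 5 finasteride libraries and the mutant likewise had 3 and 5, all from whole tissue after poly-A selection. The labels do not say that each library came from a separate animal, so the p-values measure only the spread between these libraries.

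Type I interferons bind a receptor whose kinases phosphorylate STAT proteins, among them STAT2, which joins IRF9 in a complex that binds the interferon-stimulated response element (ISRE) in the promoters of most genes described here. Interferon gamma uses its own receptor, acts through the gamma-activated site (GAS), and drives the guanylate-binding proteins and immunity-related GTPases most strongly. The products block viral entry, translation and replication, and several of them, such as IRF7 and the nucleic acid sensors, feed back to raise interferon production.

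Promoter sequences were taken from RefSeq on GRCm38.p6, from 250 bases before to 50 bases after the start of transcription, and 31 of the 40 genes matched. The ISRE letters GAAANNGAAA, on either strand, occurred in 17 of those 31 (54.8%), against 3.99% of 27025 genes with a promoter sequence of the same length. The GAS letters TTCNNNGAA, which read the same on both strands, occurred in 9 of the 31 (29%), against 9.55% of those genes. The promoters of Bst2, Eif2ak2, Ifitm3, Igtp, Irgm2 and Oas1a held both, and an ISRE match can overlap a second ISRE match. A match describes the letters and is not evidence of binding. The stretches below belong to the 6 genes whose response to finasteride differed between genotypes with the lowest p-values, among those with an ISRE match whose stretch lies wholly before the start, and to Stat2, which was lower with finasteride in the mutant. Each is printed 5′ to 3′ on the strand of its gene, with the ISRE matches in capitals.
Ifit3 (chr19:34583353-34583436, + strand): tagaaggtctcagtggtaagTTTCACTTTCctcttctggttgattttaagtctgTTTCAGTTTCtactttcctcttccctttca
Ifit1 (chr19:34640765-34640833, + strand): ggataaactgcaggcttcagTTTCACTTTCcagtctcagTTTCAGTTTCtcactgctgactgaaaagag
Oas3 (chr5:120777705-120777754, - strand): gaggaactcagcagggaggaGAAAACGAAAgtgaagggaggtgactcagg
Isg15 (chr4:156200855-156200916, - strand): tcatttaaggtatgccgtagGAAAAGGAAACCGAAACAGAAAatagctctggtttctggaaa
Gbp2 (chr3:142620584-142620633, + strand): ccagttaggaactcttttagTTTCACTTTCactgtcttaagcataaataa
Gbp3 (chr3:142559979-142560034, + strand): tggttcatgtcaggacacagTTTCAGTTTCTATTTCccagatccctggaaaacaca
Stat2 (chr10:128270256-128270305, + strand): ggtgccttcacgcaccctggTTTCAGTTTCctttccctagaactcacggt
Ifit1 and Ifit3 each held 2 separate matches, with the first beginning 104 and 156 bases before the start. Isg15 held 3 matches that overlapped into 1 run of GAAA repeats. Among the 31 genes, the 17 with an ISRE match had a median finasteride effect of -0.69 in wild type and 0.82 in the mutant (log2), and the 14 without one had -0.37 and 0.46. The order was the other way round for the genotype effect on vehicle, with medians of -0.38 with a match and -0.68 without.

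Values are normalized log2 expression that the authors deposited. Whether they were divided by gene length is not known, so levels are compared between libraries and not between genes. The test covered 16895 genes, those averaging 10 or more once values were back on the linear scale, and all 40 interferon-stimulated genes were among them. A gene is called higher or lower below at a Benjamini-Hochberg adjusted p under 0.05 over all 16895 genes in limma. Read depth per library is unknown, and the linear values of a library had a log2 total of 24.07 to 24.16 in mutant finasteride libraries and 24.31 to 24.55 in the others. Seen over genes of log2 8 or more, 5 libraries (wild-type vehicle 3, wild-type finasteride 4, mutant vehicle 3, and mutant finasteride 3 and 4) lay within 0.1 log2 units of a weighted mixture of 2 other libraries of their group. Whether they share material with those libraries was not tested, and counts are given below with all 16 libraries and with the other 11. The summed level of 7 prostate luminal markers was 367400 to 449900 in wild type on vehicle, 232500 to 365700 on finasteride, 84290 to 88620 in the mutant on vehicle and 37920 to 42550 on finasteride. Seminal vesicle markers differed widely within groups, with a summed level of 2934000, 781 and 1188000 in wild-type vehicle libraries 1, 2 and 3, of 605 to 20620 in wild type on finasteride, 100000 to 247200 in mutant vehicle libraries, 103000 in mutant finasteride library 2 and 1475000 to 3049000 in the other 4.

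As a median over the 40, the interferon-stimulated genes were lower with finasteride in 4 of 5 wild-type libraries and higher with it in all 5 mutant libraries, but not every gene did this: 37 had a difference below 0 in the wild type, 33 one above 0 in the mutant, and 7, Mx1, Stat2, Iigp1, Parp9, Eif2ak2, Dtx3l and Irgm2, one below 0 in the mutant. The median over the 40 genes, taken per library relative to the wild-type vehicle mean of each gene, was 0.13, -0.10 and -0.02 in the 3 wild-type vehicle libraries. It was -0.57, 0.09, -0.80, -0.87 and -0.90 in wild type on finasteride, and -0.57, -0.32 and -0.40 in the mutant on vehicle. In the mutant on finasteride it was 0.04, -0.01, 0.10, 0.00 and 0.08. Wild-type finasteride library 2 stood within the range of wild-type vehicle while the other 4 lay below it, all mutant vehicle libraries lay below wild-type vehicle, and the mutant finasteride libraries lay in its range. Since whole tissue was sequenced, fewer cells of a type and less RNA per cell cannot be told apart.

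**Figure D1:**
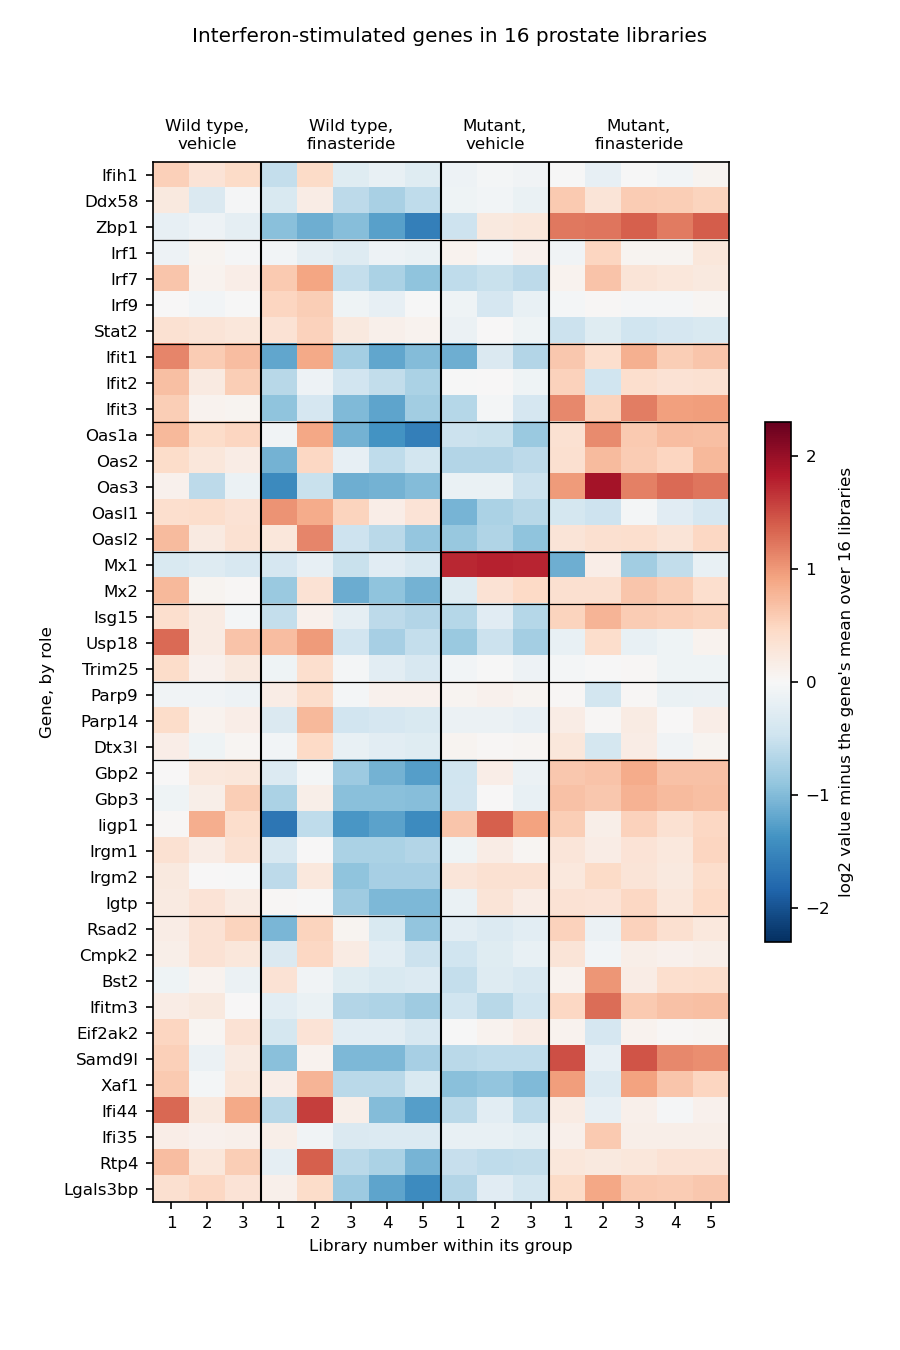
Each row is 1 of the 40 interferon-stimulated genes, ordered by role, and each column is 1 of the 16 libraries; colour gives the normalized log2 value minus the mean of that gene over the 16 libraries. Most genes are low in wild-type finasteride libraries 3 to 5 and high in the mutant finasteride libraries, while Mx1 is high in the 3 mutant vehicle libraries.

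On vehicle, 1 of the 40 genes, Mx1, was higher in the mutant than in the wild type (14.3% of all tested genes were called higher), and 11 were lower (17.5%). The median difference of the 40 was -0.39 on the log2 scale, against -0.002 over all tested genes. Over 11 libraries Mx1 remained called higher and Oasl1 lower, the only 2 of these 12 calls that held there. In that fit 647 of all 16895 tested genes were called higher and 884 lower. Of the 11 lower calls, Stat2, Ifit1 and Oasl1 were kept whichever single library was left out. Without wild-type vehicle library 1, 4 of the 40 were lower, against 2519 of all 16895. Without wild-type finasteride library 2, which enters through the shared estimate of spread, 19 were lower, against 3123 of 16895.

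In the wild type, finasteride lowered 21 of the 40 genes (21.9% of all tested genes were called lower), with a median of -0.64 against -0.03 over all tested genes. With limma 0 were called higher (17.9% of all tested genes), and 1, Parp9, was higher at an unadjusted p under 0.05. Over 11 libraries 3 of the 40 were lower, Zbp1, Ifit3 and Iigp1, against 844 of all 16895 tested genes. Without wild-type vehicle library 1 there were 11 lower calls, against 2653 of 16895. Without wild-type finasteride library 2 there were 30, against 4117 of 16895.

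In the mutant, finasteride raised 19 of the 40 (26.3% of all tested genes were called higher) and lowered 2, Mx1 and Stat2 (22.3%). The median was 0.55, against -0.002 over all tested genes. Over 11 libraries 7 of the 19 remained higher, namely Zbp1, Ifit3, Oas2, Oas3, Isg15, Bst2 and Ifitm3, and Mx1 remained lower. In that fit 1901 of all 16895 tested genes were called higher and 1530 lower. Called lower by finasteride in the wild type and higher in the mutant were 12 of the 40 (12.2% of all tested genes): Zbp1, Ifit1, Ifit3, Oas1a, Oas2, Oas3, Isg15, Gbp2, Gbp3, Ifitm3, Samd9l and Lgals3bp. These are 57.1% of the 21 lower in the wild type and 63.2% of the 19 higher in the mutant, which come from separate vehicle groups. Over all tested genes the same shares were 56% and 46.6%, so the first is near the background.

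Between the genotypes on finasteride, 24 genes were higher in the mutant (33.9% of all tested genes were called higher) and 3 were lower, Stat2, Oasl1 and Parp9 (29.7%), with a median of 0.67 against 0.02. The effect of finasteride in the mutant minus that in the wild type, the interaction, was called above zero for 28 genes (30.2% of all tested genes) and below zero for 2, Mx1 and Parp9 (26.6%). Its median was 1.25, against -0.002 over all tested genes. Over 11 libraries, 18 and 2 genes were called higher and lower between the genotypes on finasteride, and 13 and 1 in the interaction. Among all 16895 tested genes the counts there were 3780 and 3166, and 2936 and 2027. The comparisons that use the same group share its libraries, so the 5 sets of calls are not independent.

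Part of these calls depended on the scaling between libraries. Quantile normalization ended the calls of Oas2, Isg15 and Cmpk2 on vehicle, of Oas1a, Oas2, Oas3, Mx2, Isg15, Gbp3 and Samd9l for finasteride in the wild type, and of Stat2, Oasl1 and Gbp3 in the mutant. It also ended those of Oas2, Parp9, Rsad2 and Xaf1 between genotypes on finasteride, and of Mx2, Usp18, Parp9, Iigp1, Rsad2, Cmpk2 and Rtp4 in the interaction. Median centring ended the calls of Cmpk2 on vehicle, Oas2 and Trim25 in the wild type, Irf7, Oasl1 and Ifi35 in the mutant, Irf1, Rsad2 and Xaf1 between genotypes on finasteride, and Ifih1, Irf7 and Cmpk2 in the interaction. In the wild type, 7 calls (Oas1a, Oas2, Isg15, Trim25, Irgm2, Eif2ak2 and Lgals3bp) also ended when only the 2 groups compared were fitted.

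Among 12 macrophage and dendritic cell markers, 8 were lower in the mutant on vehicle, 7 fell with finasteride in the wild type and 12 rose with it in the mutant; their summed level was 4867 to 5101 in wild type on vehicle, 2567 to 3847 on finasteride, 3319 to 3448 in the mutant on vehicle and 6511 to 9523 on finasteride. Among 12 T and NK cell markers, 4 were higher in the mutant on vehicle, 5 fell in the wild type and 8 rose in the mutant with finasteride, with summed levels of 296 to 310, 116 to 236, 415 to 506 and 775 to 1151 in the same order. Among 6 B and plasma cell markers, 3 were lower in the mutant on vehicle, 3 fell in the wild type and 6 rose in the mutant, with summed levels of 235 to 241, 67.7 to 118, 73.7 to 93 and 2219 to 3321. Of 3 plasmacytoid dendritic cell markers, a cell type known for its output of type I interferon, 1 fell in the wild type and 2 rose in the mutant, with summed levels of 86.8 to 106, 39.3 to 93.7, 70 to 119 and 331 to 375. Most of that sum was Ly6d, which other cell types make too and whose mean log2 level was 5.93, 4.72, 5.95 and 8.28 in the same order. Siglech stood at 4.47, 4.21, 4.02 and 4.84, and Ccr9, which was not called for either effect of finasteride, at 3.47, 2.97, 3.26 and 3.90. Of these 33 markers, 16 had their lowest log2 value at or below 3.58, the highest value of any gene for an interferon itself, down to 1.0 for Ncr1, a gene of NK cells, so their presence in every library is not shown. Of 6 fibroblast markers, 5 were lower in the mutant on vehicle, 4 fell in the wild type and 3 rose in the mutant with finasteride, and of 5 endothelial markers 2 fell in the wild type and 4 rose in the mutant. The 1 neutrophil marker of 5 that was tested rose in the mutant and was not called in the wild type (-0.07). All 6 seminal vesicle markers fell with finasteride in the wild type and 2 rose in the mutant, whereas of the luminal markers 3 fell and 1 rose in the wild type and 3 fell and 2 rose in the mutant. Over all tested genes, 17.5% were called lower and 14.3% higher in the mutant on vehicle. With finasteride 21.9% fell and 17.9% rose in the wild type, and 22.3% fell and 26.3% rose in the mutant. The part of the cell types above in the changes of the interferon-stimulated genes was not tested.

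Medians of the marker lists per library, relative to wild-type vehicle, can be set beside those of the interferon-stimulated genes. In wild type on finasteride, macrophage markers stood at -0.77 to -0.23 and T and NK cell markers at -1.21 to -0.17. B and plasma cell markers stood at -1.0 to -0.6 there, and the interferon-stimulated genes at -0.90 to 0.09. T and NK cell markers were above wild-type vehicle in the mutant on vehicle, by a median of 0.43 to 0.58 per library, where the interferon-stimulated genes were below it. In the mutant on finasteride, B and plasma cell markers stood 2.84 to 3.58 above wild-type vehicle and macrophage markers 0.39 to 0.93 above it. The median of the interferon-stimulated genes was -0.01 to 0.10 there. In the mutant on vehicle these lists stood lower, at -0.89 to -0.57, -0.68 to -0.53 and -0.57 to -0.32 in the same order. Wild-type vehicle library 2 had little of the seminal vesicle signal of libraries 1 and 3. Its median over the 40 genes was -0.10, the lowest in wild type on vehicle. Library 1, which had the most of this signal, had the highest there, at 0.13. The wild-type finasteride libraries lay at -0.90 to 0.09. A part of seminal vesicle tissue or of any cell type in these levels was not tested.

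**Figure D2:**
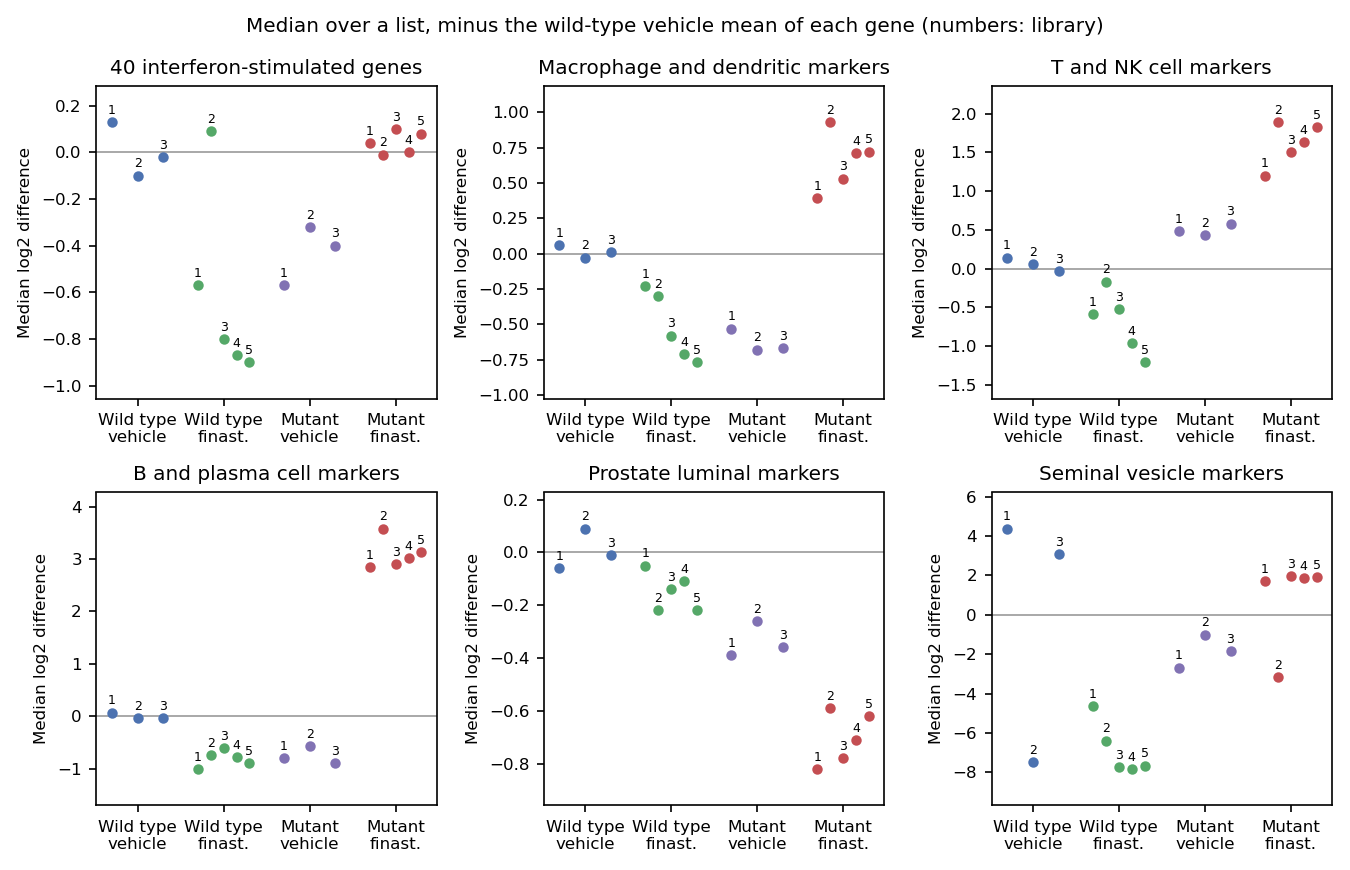
Each panel shows 1 gene list, and each point is 1 library, plotted as the median over the list of the log2 value minus the wild-type vehicle mean of that gene (vertical axis), by group (horizontal axis), with the library number above it. The 40 interferon-stimulated genes lie between -0.01 and 0.10 in the mutant on finasteride, whereas B and plasma cell markers lie between 2.84 and 3.58 there.

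The sensors Ifih1 (MDA5) and Ddx58 (RIG-I) detect viral RNA in the cytosol, and Zbp1 binds Z-form nucleic acid and can start necroptosis. Zbp1 had the largest difference between genotypes on finasteride among the 40. Its values were 5.10, 5.17 and 5.08 in wild type on vehicle and 4.34, 4.17, 4.32, 4.04 and 3.73 on finasteride. In the mutant they were 4.82, 5.51 and 5.55 on vehicle and 6.50, 6.52, 6.67, 6.49 and 6.69 on finasteride. The finasteride libraries did not overlap the vehicle libraries in either genotype, lying below them in the wild type and above them in the mutant. Zbp1 fell by 1.0 (SE 0.18, adjusted p = 0.000795) in the wild type and rose by 1.28 (SE 0.18, adjusted p = 4.66e-05) in the mutant, and it was higher by 2.46 (SE 0.16, adjusted p = 5.29e-09) in the mutant on finasteride. Over 11 libraries these were -1.0, 1.41 and 2.43, all still called, and after quantile normalization the first 2 were -0.52 and 0.74, still called. Ddx58 rose by 0.62 in the mutant and differed by -0.38 in the wild type, which was not called. Ifih1 was lower by 0.52 in the mutant on vehicle, a call that ended without any 1 of 5 libraries (wild-type vehicle 1 or 3, or mutant vehicle 1, 2 or 3, with adjusted p from 0.0632 to 0.0967). Ifih1 also fell by 0.60 in the wild type with finasteride, and differed by 0.05 in the mutant.

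Of the transcription factors, Stat2 and Irf9 belong to the complex that binds the ISRE, Irf7 amplifies type I interferon production, and Irf1 acts downstream of interferon gamma. Stat2 values were 11.22, 11.17 and 11.13 in wild type on vehicle and 11.20, 11.40, 11.10, 10.98 and 10.96 on finasteride. In the mutant they were 10.73, 10.88 and 10.78 on vehicle and 10.38, 10.59, 10.41, 10.49 and 10.52 on finasteride. All mutant libraries were below all wild-type libraries, and the mutant finasteride libraries were below the mutant vehicle libraries. Stat2 was lower in the mutant by 0.38 on vehicle (SE 0.10, adjusted p = 0.00909) and by 0.65 on finasteride (SE 0.08, adjusted p = 3e-06), and it fell by 0.32 with finasteride in the mutant (SE 0.09, adjusted p = 0.00769), which became -0.16 and was not called after quantile normalization (adjusted p = 0.151). Its promoter stretch holds the letters TTTCAGTTTC, which also occur in those of Ifit1, Ifit3 and Gbp3, genes that rose with finasteride in the mutant. The interaction was -0.27 and not called (adjusted p = 0.0736); it was -0.05 after quantile normalization (adjusted p = 0.772) and -0.48, called, after median centring (adjusted p = 0.00459). Over 11 libraries Stat2 kept its call between genotypes on finasteride (-0.67, adjusted p = 0.00106), and the other 2 were not called (adjusted p = 0.125 for each).

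Irf9 values were 10.59, 10.51 and 10.57 in wild type on vehicle and 11.07, 11.14, 10.47, 10.38 and 10.56 on finasteride. The mutant had 10.47, 10.19 and 10.41 on vehicle and 10.52, 10.60, 10.54, 10.54 and 10.62 on finasteride. The 2 highest values belonged to wild-type finasteride libraries 1 and 2, and Irf9 was not called in any of the 5 comparisons, with differences from -0.21 to 0.21. When only the 2 mutant groups were fitted, it was called for finasteride in the mutant. Irf7 values were 9.97, 9.42 and 9.50 in wild type on vehicle and 9.95, 10.25, 8.79, 8.61 and 8.41 on finasteride. They were 8.76, 8.83 and 8.74 in the mutant on vehicle and 9.43, 9.99, 9.63, 9.60 and 9.57 on finasteride. In the wild type, finasteride library 2 was above the vehicle range, library 1 inside it and libraries 3, 4 and 5 below it, while in the mutant all finasteride libraries were above all vehicle libraries. Irf7 rose by 0.87 in the mutant (SE 0.34, adjusted p = 0.0426), a call that ended without any 1 of 8 libraries (wild-type vehicle 3, mutant vehicle 1, 2 or 3, or mutant finasteride 2, 3, 4 or 5), with adjusted p from 0.0518 to 0.103. Its interaction of 1.29 (SE 0.47, adjusted p = 0.0295) ended without any 1 of 5 libraries (wild-type vehicle 1, wild-type finasteride 3 or 4, or mutant vehicle 1 or 3, adjusted p from 0.0506 to 0.0792). Irf1 was higher by 0.32 in the mutant on finasteride and was not called in the other comparisons; median centring gave 0.19, not called (adjusted p = 0.11).

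**Figure D3:**
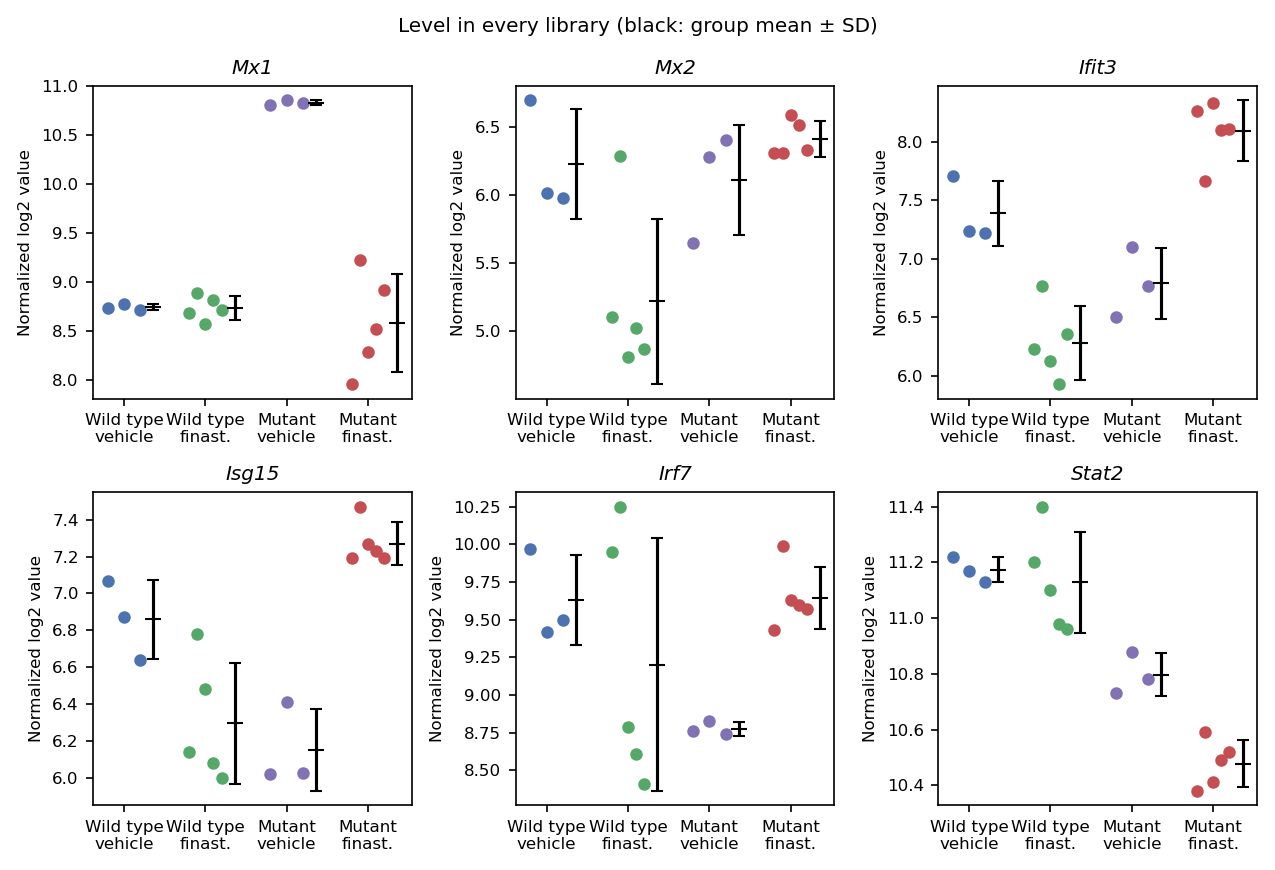
Each panel shows the normalized log2 value of 1 gene in every library, by group, with the group mean ± SD in black; the vertical axes do not start at 0 and differ between panels. Mx1 lies at 10.81 to 10.86 in the mutant on vehicle and at 9.23 or below in all other libraries, and Stat2 is lower in all mutant libraries than in all wild-type libraries.

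The IFIT proteins bind viral RNA and block its translation. All 3 were lower with finasteride in the wild type, and Ifit1 and Ifit3 were higher with it in the mutant. Ifit3 values were 7.71, 7.24 and 7.22 in wild type on vehicle and 6.23, 6.77, 6.13, 5.93 and 6.36 on finasteride. In the mutant they were 6.50, 7.10 and 6.77 on vehicle and 8.26, 7.66, 8.33, 8.10 and 8.11 on finasteride. The 4 groups did not overlap for either effect of finasteride, and the mutant finasteride libraries were the highest but for library 2, which lay below wild-type vehicle library 1. Ifit3 fell by 1.11 in the wild type (SE 0.20, adjusted p = 0.000749) and rose by 1.30 in the mutant (SE 0.20, adjusted p = 9.1e-05), with an interaction of 2.41 (SE 0.28, adjusted p = 6.88e-06), and over 11 libraries the interaction was 2.31 (adjusted p = 0.00252). Reads of Ifit3 can be shared with its near copy Ifit3b, so its level is uncertain to that degree.

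Ifit1 values were 8.60, 8.05 and 8.18 in wild type on vehicle and 6.27, 8.34, 6.69, 6.28 and 6.48 on finasteride. Mutant values were 6.35, 7.13 and 6.79 on vehicle and 8.10, 7.86, 8.28, 8.03 and 8.11 on finasteride. Wild-type finasteride library 2 was in the range of the vehicle libraries while the other 4 were below it, and the mutant groups did not overlap. Ifit1 was lower by 1.52 in the mutant on vehicle (SE 0.40, adjusted p = 0.0097), fell by 1.46 with finasteride in the wild type (SE 0.36, adjusted p = 0.00544) and rose by 1.32 in the mutant (SE 0.36, adjusted p = 0.0071). Its interaction, 2.78 (SE 0.51, adjusted p = 0.000322), was the largest of the 40. Ifit2 fell by 1.0 in the wild type and differed by 0.26 in the mutant, which was not called.

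The oligoadenylate synthetases make a second messenger that activates RNase L, and the Oasl proteins are their relatives. All 5 were higher with finasteride in the mutant, by 1.31 for Oas1a, 1.24 for Oas2, 1.58 for Oas3, 0.50 for Oasl1 and 1.20 for Oasl2. The Oasl1 call had adjusted p = 0.0321, turned to -0.05 (adjusted p = 0.826) after quantile normalization, and ended without mutant vehicle library 1 or 2 or mutant finasteride library 3 or 4 (adjusted p from 0.0569 to 0.158). Without mutant vehicle library 3 the Oas1a rise had adjusted p = 0.0626. Oas3 values were 5.10, 4.40 and 4.87 in wild type on vehicle and 3.53, 4.49, 3.88, 3.91 and 4.01 on finasteride. In the mutant they were 4.85, 4.85 and 4.51 on vehicle and 5.97, 6.91, 6.16, 6.31 and 6.23 on finasteride. The mutant finasteride libraries were above all others, and wild-type finasteride library 2 was inside the wild-type vehicle range. Oas3 was higher in the mutant on finasteride by 2.35 (SE 0.21, adjusted p = 1.59e-07).

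In the wild type, finasteride lowered Oas1a by 1.21, Oas2 by 0.65 and Oas3 by 0.82. After quantile normalization none of these 3 was called, at -0.88 for Oas1a (adjusted p = 0.0713), -0.23 for Oas2 (0.455) and -0.37 for Oas3 (0.293), and the rises of Oas2 and Oas3 in the mutant were 0.69 and 0.99, still called. The 3 calls also depended on single libraries: Oas2 (adjusted p = 0.0451) lost its call without any library other than wild-type finasteride 2 or mutant finasteride 2 (adjusted p from 0.0501 to 0.144). Oas1a lost it without any wild-type vehicle library or wild-type finasteride library 3, 4 or 5 (0.053 to 0.0981), and Oas3 without wild-type vehicle library 1 or 3 (0.0544 and 0.0825). Oasl1 was lower in the mutant on both treatments. Its values were 7.08, 7.10 and 7.03 in wild type on vehicle, 7.73, 7.55, 7.21, 6.85 and 7.00 on finasteride, 5.63, 5.96 and 6.05 in the mutant on vehicle, and 6.29, 6.22, 6.65, 6.43 and 6.31 on finasteride. All 8 mutant libraries were below all 8 wild-type libraries. Oasl1 was lower in the mutant by 1.19 on vehicle (SE 0.20, adjusted p = 0.00039) and by 0.89 on finasteride (SE 0.16, adjusted p = 0.000156), and over 11 libraries by 1.30 and 1.10, both called; quantile normalization gave -1.39 on finasteride, also called. Oasl2 and Oas2 were also lower in the mutant on vehicle, by 1.26 and 0.93; both calls ended without wild-type vehicle library 1 (adjusted p = 0.0541 and 0.0542), and that of Oas2 ended after quantile normalization (-0.60, adjusted p = 0.0889). Reads of the Oas1 genes and of Oasl1 and Oasl2 can be split between close paralogs.

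The Mx proteins are dynamin-like GTPases that trap viral particles; mouse Mx1 acts in the nucleus and Mx2 in the cytoplasm, and many inbred laboratory strains, C57BL/6 among them, carry a deletion that inactivates Mx1. The 2 genes behaved differently. Mx1 values were 8.74, 8.78 and 8.72 in wild type on vehicle and 8.69, 8.89, 8.58, 8.82 and 8.72 on finasteride. Values in the mutant were 10.81, 10.86 and 10.83 on vehicle and 7.96, 9.23, 8.29, 8.52 and 8.92 on finasteride. The mutant vehicle libraries were the highest by more than 1 log2 unit and did not overlap any other group, whereas the 2 wild-type groups overlapped.

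Mx1 was higher by 2.08 in the mutant on vehicle (SE 0.22, adjusted p = 6.98e-06) and fell by 2.25 with finasteride in the mutant (SE 0.20, adjusted p = 6.14e-07). It differed by -0.01 with finasteride in the wild type (SE 0.20, adjusted p = 0.986) and by -0.16 between genotypes on finasteride (adjusted p = 0.435). The interaction was -2.24 (SE 0.28, adjusted p = 1.23e-05), the most negative of the 40. Over 11 libraries the genotype effect on vehicle was 2.08 (adjusted p = 0.00445), the effect of finasteride in the mutant -2.13 (adjusted p = 0.0015) and the interaction -2.09 (adjusted p = 0.00478), and all 3 calls were kept whichever single library was left out. In the mutant on vehicle, T and NK cell markers were also higher than in wild type on vehicle, but macrophage and B cell markers were lower; a part of any cell type in the Mx1 level was not tested.

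Mx2 values were 6.70, 6.02 and 5.98 in wild type on vehicle and 5.10, 6.29, 4.81, 5.02 and 4.87 on finasteride. Mutant libraries had 5.65, 6.28 and 6.41 on vehicle and 6.31, 6.31, 6.59, 6.52 and 6.33 on finasteride. Wild-type finasteride library 2 was inside the vehicle range and the other 4 were below it, and the mutant groups overlapped. Mx2 fell by 1.02 with finasteride in the wild type (SE 0.29, adjusted p = 0.0131, and 0.0851 without wild-type vehicle library 1), differed by 0.30 in the mutant and by -0.12 between genotypes on vehicle. It was higher by 1.20 in the mutant on finasteride (SE 0.25, adjusted p = 0.000765), and its interaction was 1.31 (adjusted p = 0.0139). Quantile normalization gave -0.57 in the wild type (adjusted p = 0.0932), -0.23 in the mutant and an interaction of 0.34 (adjusted p = 0.451), none of them called, and 0.54 between genotypes on finasteride, still called (adjusted p = 0.0485). Reads of parts that Mx1 and Mx2 have in common can be split between them.

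ISG15 is a ubiquitin-like protein that is attached to other proteins, Usp18 removes it and also restrains the type I receptor, and Trim25 is a ligase that activates RIG-I. Isg15 values were 7.07, 6.87 and 6.64 in wild type on vehicle and 6.14, 6.78, 6.48, 6.08 and 6.00 on finasteride, with library 2 inside the vehicle range. They were 6.02, 6.41 and 6.03 in the mutant on vehicle and 7.19, 7.47, 7.27, 7.23 and 7.19 on finasteride, with every finasteride value above those of all other groups. Isg15 was lower by 0.70 in the mutant on vehicle and fell by 0.56 with finasteride in the wild type, and both calls ended without wild-type vehicle library 1 (adjusted p = 0.053 and 0.0959) and after quantile normalization, at -0.40 and -0.20 (adjusted p = 0.119 and 0.365). It rose by 1.11 in the mutant (SE 0.17, adjusted p = 0.000101), and by 0.68 after quantile normalization, still called (adjusted p = 0.00439). Usp18 was lower by 1.42 in the mutant on vehicle (adjusted p = 0.0123, and 0.0614 without wild-type vehicle library 1), and its interaction of 1.44 ended without wild-type vehicle library 1 or mutant vehicle library 1 (0.0507 to 0.0742) and after quantile normalization (0.85, adjusted p = 0.141). Trim25 fell by 0.33 in the wild type (adjusted p = 0.0431); this call ended when any library other than wild-type vehicle 2, wild-type finasteride 2 or mutant finasteride 2 was left out (0.0507 to 0.201).

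Parp9, Parp14 and Dtx3l act together in ADP-ribosylation and ubiquitination, and Parp9 and Dtx3l, which share a promoter region, form a complex. Parp9 was the only one of the 3 that was called in any comparison when all 16 libraries were fitted with the values as deposited. Parp9 values were 9.94, 9.94 and 9.90 in wild type on vehicle, 10.19, 10.42, 9.97, 10.12 and 10.11 on finasteride, 10.09, 10.11 and 10.09 in the mutant on vehicle, and 10.05, 9.59, 10.05, 9.86 and 9.89 on finasteride. The mutant finasteride libraries were below the mutant vehicle libraries and overlapped the wild-type finasteride libraries. Parp9 was lower by 0.27 in the mutant on finasteride (SE 0.09, adjusted p = 0.0146), and its interaction was -0.45 (SE 0.15, adjusted p = 0.0176); over 11 libraries these had adjusted p = 0.066 and 0.109, and after quantile normalization they were -0.17 and -0.28, not called (adjusted p = 0.114 and 0.134). Parp14 and Dtx3l were not called in any comparison of that fit, with differences of -0.37 to 0.63 for Parp14 and -0.09 to 0.06 for Dtx3l. The Parp14 interaction was called after quantile normalization (0.78, adjusted p = 0.0297). When only the 2 groups compared were fitted, Parp14 was also called for the genotype effect on vehicle and for finasteride in the mutant.

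The guanylate-binding proteins Gbp2 and Gbp3 and the immunity-related GTPases Iigp1, Irgm1, Irgm2 and Igtp take part in the defence against intracellular pathogens. All 6 fell with finasteride in the wild type and were higher in the mutant than in the wild type on finasteride, while with finasteride in the mutant Gbp2 and Gbp3 rose, by 0.85 and 0.90. After quantile normalization Gbp3 was at -0.50 in the wild type and 0.45 in the mutant, neither called (adjusted p = 0.052 and 0.0629). Iigp1 values were 7.10, 7.92 and 7.49 in wild type on vehicle and 5.42, 6.50, 5.74, 5.85 and 5.63 on finasteride. In the mutant they were 7.71, 8.45 and 8.01 on vehicle and 7.65, 7.21, 7.60, 7.42 and 7.55 on finasteride. The finasteride libraries were below the vehicle libraries in both genotypes. Iigp1 fell by 1.68 in the wild type (SE 0.23, adjusted p = 0.000123), the largest fall there among the 40, and it differed by -0.57 in the mutant (SE 0.23, adjusted p = 0.0541), which was not called. Both other scalings did call it lower in the mutant, at -0.70 with median centring (adjusted p = 0.015) and -0.84 with quantile normalization (adjusted p = 0.00332). Its interaction was 1.11 (adjusted p = 0.00983), with differences of the same sign in both genotypes, and ended after quantile normalization (0.47, adjusted p = 0.176).

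Irgm1 values were 9.48, 9.30 and 9.49 in wild type on vehicle and 8.76, 9.14, 8.40, 8.41 and 8.46 on finasteride, with no overlap. They were 9.04, 9.31 and 9.17 in the mutant on vehicle and 9.41, 9.31, 9.45, 9.37 and 9.62 on finasteride, where the lowest finasteride value equalled the highest vehicle value at this precision. Irgm1 fell by 0.79 in the wild type (SE 0.14, adjusted p = 0.000751) and differed by 0.26 in the mutant (adjusted p = 0.151). Gbp2 fell by 0.89, Gbp3 by 0.90, Igtp by 0.82 and Irgm2 by 0.63 in the wild type, and the Irgm2 call ended without wild-type vehicle library 1 (adjusted p = 0.0703). Igtp and Irgm2 differed by 0.27 and -0.01 with finasteride in the mutant, and neither was called. Between genotypes on vehicle none of these GTPases was called. T and NK cells are the usual source of interferon gamma. Of their 12 markers, 5 fell in the wild type (21.9% of all tested genes) and 8 rose in the mutant (26.3%) with finasteride. On vehicle 4 were higher in the mutant (14.3%). A part of these cells in the GTPase levels was not tested. Reads of these GTPases can be split among close relatives.

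Among the 11 other effectors are Ifitm3, which blocks fusion of viruses with the cell, Bst2, which tethers budding virus, Rsad2 (viperin) and Cmpk2, neighbours that together make an antiviral nucleotide, Eif2ak2 (PKR), which stops translation, and Samd9l, a restrictor of translation. Ifitm3 had the lowest p of the rises in the mutant. Its values were 10.26, 10.30 and 10.09 in wild type on vehicle and 9.84, 9.92, 9.41, 9.38 and 9.27 on finasteride. Values of the mutant were 9.63, 9.44 and 9.62 on vehicle and 10.56, 11.37, 10.68, 10.75 and 10.78 on finasteride. The groups did not overlap for either effect of finasteride, and all mutant finasteride libraries were above all others. Ifitm3 fell by 0.65 in the wild type (SE 0.17, adjusted p = 0.00786) and rose by 1.26 in the mutant (SE 0.17, adjusted p = 3.01e-05). It was lower by 0.65 in the mutant on vehicle (adjusted p = 0.0167), and that call ended without wild-type vehicle library 2 or mutant vehicle library 2 (0.0521 to 0.064).

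Samd9l and Xaf1 rose by 1.58 and 1.51 with finasteride in the mutant, although mutant finasteride library 2 was far below the other 4 for Samd9l, at 8.01 against 9.26 to 9.67. Bst2 rose by 0.82, Lgals3bp by 1.08 (adjusted p = 0.0116, and 0.0519 without mutant vehicle library 1) and Ifi35 by 0.42. Samd9l, Lgals3bp and Eif2ak2 fell in the wild type by 0.95, 0.98 and 0.48, and these calls ended without any 1 of 6, 5 and 3 libraries, all of them wild type (adjusted p from 0.0503 to 0.132, 0.0518 to 0.0675 and 0.0503 to 0.118). Xaf1 and Cmpk2 were lower in the mutant on vehicle by 1.23 and 0.55; the first call ended without wild-type vehicle library 1 (0.0606) and the second without any 1 of 10 libraries (0.0521 to 0.142). Rsad2 and Xaf1 were higher in the mutant on finasteride by 0.65 and 0.68, and those calls ended without any 1 of 5 and 7 finasteride libraries (0.0511 to 0.0794 and 0.0581 to 0.103) and after quantile normalization, at 0.15 and 0.48 (adjusted p = 0.516 and 0.108). Rtp4 was called in the interaction alone (1.60, and 1.14 with adjusted p = 0.0511 after quantile normalization). Ifi44 was not called in any comparison although its differences reached -1.29 and 1.56. When only the 2 groups compared were fitted, both were called for the genotype effect on vehicle and for finasteride in the mutant. The SDs of Ifi44 and Rtp4 in wild type on finasteride, 1.15 and 0.96, were among the widest, with library 2 at 8.35 and 9.05 against 5.49 to 6.90 and 6.61 to 7.48 in the other 4.

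**Figure D4:**
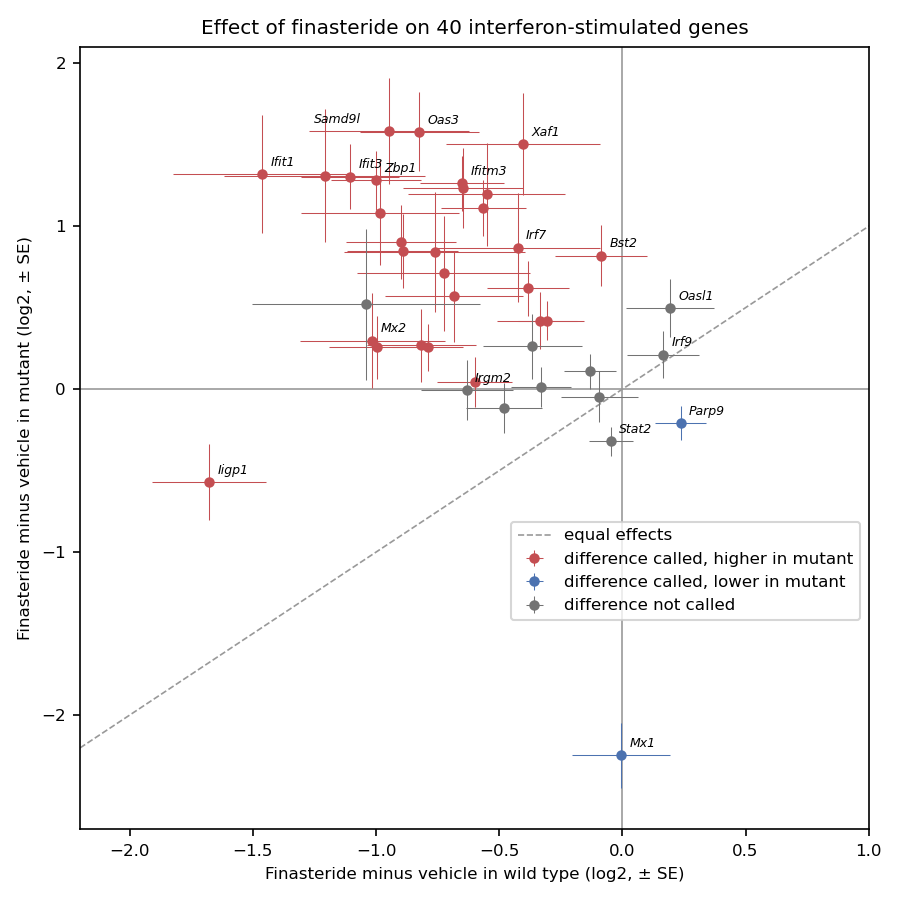
Each point is 1 of the 40 genes, with its log2 difference between finasteride and vehicle in the wild type (horizontal axis) and in the mutant (vertical axis), both ± SE; colour shows whether the 2 effects differed, and the dashed line marks equal effects. Most genes lie to the left of and above zero, Mx1 lies at -0.01 and -2.25, and Iigp1 is negative on both axes.

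Wild type on finasteride was the most variable group for these genes. Library 2 held the highest value of the 5 for 34 of the 40 genes, against 27.8% of all tested genes. Library 1 held the highest for the other 6, against 32.4%. Libraries 3, 4 and 5 held the lowest for 9, 8 and 16, against 15.4%, 10.3% and 18.7% of all tested genes. In library 2 the macrophage markers, at a median of -0.30 relative to wild-type vehicle, and the T and NK cell markers, at -0.17, were below wild-type vehicle, while the interferon-stimulated genes stood at 0.09. In the other groups no single library led to that extent. Wild-type vehicle library 1 was highest for 25 genes, against 36.5% of all tested genes. Mutant vehicle library 2 was highest for 26 (38.9% of all tested genes) and mutant finasteride library 2 for 13 (35.8%).

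The genes for the interferons themselves were barely detected. Of 21 ligand genes listed, 17 were found in the table, with log2 values from -0.17 to 3.58, where the median gene of a library stood at 3.95 to 4.82. None passed the filter on low values. When limma was fitted with no filter, 5 differences among them were called: Ifne fell by 1.5 with finasteride in the wild type, was higher by 1.84 in the mutant on finasteride and had an interaction of 2.58, Ifna13 rose by 1.20 with finasteride in the mutant, and Ifng was higher by 1.42 in the mutant on finasteride (adjusted p = 0.00254). Mean Ifng levels were 1.71 ± 0.40 (SD, n = 3) and 1.69 ± 0.78 (n = 5) in wild type on vehicle and finasteride, and 2.54 ± 0.54 (n = 3) and 3.11 ± 0.13 (n = 5) in the mutant. Its differences with finasteride in the mutant, 0.58, and between genotypes on vehicle, 0.82, were not called (adjusted p = 0.33 and 0.245). All these levels are below the median gene of a library, where the counting error is unknown. Of 6 receptor genes, 3 rose and 1 fell with finasteride in the wild type, against 17.9% and 21.9% of all tested genes. In the mutant 1 rose and 1 fell, against 26.3% and 22.3%. Il10rb, a subunit shared by the receptors for interferon lambda and interleukin 10, had the lowest p of the 6 for finasteride in the mutant: it was lower by 1.30 in the mutant on vehicle, fell by 0.66 with finasteride in the wild type and rose by 1.24 in the mutant (adjusted p = 4.12e-06), the directions most of the 40 genes took. The type I receptor gene Ifnar1 rose by 0.42 with finasteride in the wild type, and Ifnar2 was higher in the mutant by 0.69 on vehicle and 0.76 on finasteride. The gamma receptor gene Ifngr1 rose by 0.42 with finasteride in the wild type and fell by 0.31 in the mutant, opposite in sign to most of the 40 genes, and Ifngr2 rose by 0.36 in the wild type.

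Over all tested genes, 17.9% rose and 21.9% fell with finasteride in the wild type, and 26.3% rose and 22.3% fell in the mutant. Of 8 genes of signalling next to the receptors, 3 rose and 4 fell with finasteride in the wild type. In the mutant 2 of the 8 rose, Irf5 by 1.20 and Jak1 by 0.39, which is near the background. Of 6 negative regulators, Socs3 and Socs1 rose in the mutant by 1.40 and 0.70, whereas Trim24 and Ptpn2 fell by 0.98 and 0.21. Socs3, a feedback inhibitor of cytokine receptors, also fell by 0.73 in the wild type. Of 15 tested genes of nucleic acid sensing, 6 fell and 1 rose in the wild type with finasteride, and 8 rose and 3 fell in the mutant, with Dhx58 (LGP2), a relative of Ddx58, at -0.84 and 1.54.

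A further list of 45 interferon-induced genes, 43 of them tested, followed the pattern of the 40. On vehicle 17 were lower and 4 higher in the mutant, against 17.5% and 14.3% of all tested genes. With finasteride 29 fell and 1 rose in the wild type (21.9% and 17.9%), and 31 rose in the mutant (26.3%). Their median differences were -0.54, -0.78 and 0.97. The interaction was called above zero for 34 (30.2% of all tested genes) with a median of 1.83. Epsti1 fell by 0.99 in the wild type and rose by 1.88 in the mutant, and with limma 0 of the 43 fell in the mutant with finasteride, also at an unadjusted p under 0.05. The 4 higher in the mutant on vehicle were Cxcl9 by 1.40, Cxcl10 by 1.19, Oas1b by 0.94 and Ifitm1 by 0.52. Cxcl10, a chemokine induced by interferon gamma, differed by -0.14 with finasteride in the mutant (adjusted p = 0.621). This list and the 40 genes were both chosen with results of these data known.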

How the data were processed

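Normalized log2 expression of 29535 genes in 16 mouse prostate RNA-seq libraries was deposited by the authors. The base of the log was inferred from plausible totals. The submitters' processing notes name CASAVA 1.8.2, TopHat, Cufflinks, DESeq, DESeq2 and build mm9, without saying which made the table. Groups came from the labels. A linear model of 4 group means was fitted with limma 3.58.1 (R 4.3.3, variance trend) to the 16895 genes whose linear values averaged 10 or more, with Benjamini-Hochberg adjustment and a threshold of 0.05, two-sided. It was tested on simulated data. The 40 genes, the other gene lists and the markers were chosen with earlier results of these data known. All 40 are named; library values are given for Mx1, Mx2, Irf7, Irf9, Stat2 and, in each comparison, the called genes with the lowest p, up to 3 in each direction. Depth is unknown. RefSeq promoters (GRCm38.p6) were used for letters and their own coordinates only. The mutated gene and 1 gene of the other lists are not reported here. Alternatives were quantile normalization, median centring, a pseudocount of 10, no filter or a mean of 50, no trend, only the groups compared, 11 libraries, and each library left out.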

Additional observations from a re-analysis of the deposited data

Results flagged for a closer look

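In 1 group of 5 libraries, the highest or lowest value of a gene can stand apart from the others. Such values numbered 14 in 80 gene and group combinations. The rule flags about 1 in 20 combinations of independent values, but these genes share their libraries and are not independent. The share over all tested genes was not computed, so the count is not shown to be particular to these genes. Wild-type finasteride library 2 stood above its group for Ifit1 (8.34), Mx2 (6.29), Parp14 (10.77), Gbp3 (6.62), Irgm2 (8.79), Eif2ak2 (9.66) and Samd9l (8.27). Mutant finasteride library 2 stood below its group for Ddx58 (9.54), Ifit2 (7.15), Eif2ak2 (8.95) and Samd9l (8.01), and above it for Ifitm3 (11.37) and Ifi35 (9.56). Gbp2 was high in mutant finasteride library 3 (8.38).

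The effect of finasteride differed between the genotypes for 30 genes, by the interaction in limma. The effect in the mutant minus that in the wild type, on the log2 scale, was 0.65 for Ifih1, 1.0 for Ddx58, 2.28 for Zbp1 and 1.29 for Irf7. It was 2.78 for Ifit1, 1.25 for Ifit2 and 2.41 for Ifit3, and in the synthetase family 2.52 for Oas1a, 1.88 for Oas2, 2.40 for Oas3 and 1.75 for Oasl2. Mx1 had -2.24 and Mx2 1.31, values of opposite sign. Isg15 had 1.68, Usp18 1.44 and Parp9 -0.45. Among the GTPases Gbp2 had 1.74, Gbp3 1.8, Iigp1 1.11, Irgm1 1.05 and Igtp 1.08. Among the other effectors Rsad2 had 1.26, Cmpk2 0.75, Bst2 0.91, Ifitm3 1.91, Samd9l 2.53, Xaf1 1.91, Ifi35 0.72, Rtp4 1.60 and Lgals3bp 2.07. After quantile normalization 7 of these calls ended, those of Mx2, Usp18, Parp9, Iigp1, Rsad2, Cmpk2 and Rtp4.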

How the results depend on the processing

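The only called fold change of the 40 genes that changed sign under the alternatives run was that of Oasl1 with finasteride in the mutant, at -0.047 (adjusted p = 0.8257) after quantile normalization. For the genotype effect on vehicle, quantile normalization called 2 genes higher, and using only the 2 groups compared called 3 higher and 24 lower. For finasteride in the wild type, quantile normalization and median centring each called 1 higher. For finasteride in the mutant median centring called 4 lower, and for the interaction quantile normalization called 1 lower. Over 11 libraries, 1 gene was called lower on vehicle and 3 for finasteride in the wild type. For finasteride in the mutant 7 were called higher and 1 lower, and in the interaction 13 and 1. Among all 16895 tested genes the counts in the same order were 884, 844, 1901 and 1530, and 2936 and 2027. The cause of the smaller counts was not tested. Leaving out each library in turn gave 4 to 19 lower on vehicle, 0 to 1 higher and 11 to 30 lower in the wild type, 16 to 24 higher and 2 to 3 lower in the mutant, 22 to 32 higher and 3 to 4 lower between genotypes on finasteride, and 26 to 33 higher and 2 to 3 lower in the interaction. Among all 16895 tested genes the same fits gave 2191 to 3443 lower on vehicle and 2629 to 4218 lower in the wild type. They gave 3601 to 4854 higher in the mutant, 5333 to 6065 higher between genotypes on finasteride, and 4691 to 5478 higher in the interaction.

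Scaling moved the background. Median centring shifted the median of all tested genes to -0.138 for finasteride in the mutant, -0.105 between genotypes on finasteride and -0.208 in the interaction, and quantile normalization shifted the last to -0.148; the medians of the 40 genes were then 0.41, 0.539, 1.048 and 0.832. The higher and lower calls over all genes, 2413 and 2961 on vehicle, became 3164 and 2542 with median centring; 3027 and 3694 for finasteride in the wild type became 3664 and 2758 with quantile normalization. With the latter, 4439 and 3767 in the mutant became 3380 and 4682, 5735 and 5022 between genotypes on finasteride became 4496 and 6128, and 5108 and 4489 in the interaction became 3837 and 5563. No paired analysis was possible because the titles carry running numbers that pair no libraries across groups. Without depth, no counting error can be given for low values.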
